A study of Mus musculus with 24 samples.

Results

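The enzymes described here introduce double bonds into fatty acids or lengthen them: the stearoyl-CoA desaturases Scd1 and Scd2, the front-end desaturase family members Fads1, Fads2 and Fads3, and the elongases Elovl1, Elovl5 and Elovl7. They were chosen by gene symbol, and each gene is represented by the probe set with the highest mean over all arrays, which gave 8 genes of the 19938 measured. Each of the 8 genes had 1 probe set assigned to it alone. RNA came from epididymal white fat of 24 wild-type male C57Bl/6 mice, 1 array per mouse, in 4 groups of 6: germ-free mice fed lard, conventional mice fed lard, germ-free mice fed menhaden fish oil, and conventional mice fed menhaden fish oil. Mice were 11 weeks old at the start, both diets supplied 45% of calories as fat for 11 weeks, and all mice were fasted for 4 h before the tissue was taken. Every group therefore received a high-fat diet, and no low-fat group is analysed here. Values are log2 signals, and they are compared between groups for a given gene, not between genes.

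Fatty acids are desaturated and elongated on the membrane of the endoplasmic reticulum. Scd1 and Scd2 make monounsaturated fatty acids from saturated ones. Fads2 catalyses the entry step of the pathway from dietary linoleic and alpha-linolenic acid to long-chain polyunsaturated fatty acids, Elovl5 lengthens its products, and Fads1 desaturates them again to give arachidonic and eicosapentaenoic acid. Fads3 has been described as a desaturase of sphingoid bases, Elovl1 makes very long saturated and monounsaturated chains used in sphingolipids, and Elovl7 elongates saturated long-chain acyl-CoAs. Polyunsaturated fatty acids are known in liver to lower the transcription of several of these genes through the sterol regulatory element-binding protein SREBP-1c. Fish oil supplies the long-chain end products of the polyunsaturated pathway preformed, while lard is rich in saturated and monounsaturated fatty acids.

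The arrays correlated within groups at 0.979 to 0.995, with array medians from 7.09 to 7.20, and 0 pairs held identical values. Mature adipocyte markers were high in all groups: Adipoq averaged 13.08 and 13.14 in germ-free and conventional mice on lard, and 13.56 and 13.60 in germ-free and conventional mice on fish oil. Some mice stood apart in markers of other tissues. The mean of 23 hepatocyte markers was 8.09 to 9.37 in the germ-free mice on fish oil, against 6.78 to 8.11 in the conventional mice on fish oil, where mouse 6 had the highest value. The mean of 19 intestinal epithelium markers was 9.19 in mouse 4 of the germ-free group on lard, against 5.65 to 5.97 across the conventional mice on lard. The mean of 9 epididymal epithelium markers was 6.16 in mouse 6 of the germ-free group on fish oil, against 5.36 to 5.55 in the rest of its group; without this mouse Scd2 and Fads1 were still lower in germ-free than conventional mice fed fish oil (-0.86, limma adjusted p 0.0125, and -0.51, adjusted p 0.00766). Mouse 6 was also its group's highest for Scd1, Fads2 and Elovl5. Mice 5 and 6 of the conventional group on lard had the lowest adipocyte marker means of that group, both 12.31, and its highest macrophage marker means, 11.42 and 11.40. The labels give neither scan batches nor the colony or housing of the mice, so a batch could not be tested and bacterial status and colony cannot be told apart.

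Fads1, Fads2 and Fads3 lie next to each other among the protein-coding genes of chromosome 19, and Scd1 and Scd2 lie on the same chromosome on either side of Scd4. Elovl1 is on chromosome 4, Elovl5 on chromosome 9 and Elovl7 on chromosome 13. RefSeq promoters (GRCm38.p6) were matched for 5 of the 8 genes, in 6 windows. The windows printed are the 250 bases before an annotated start of Fads3 and Elovl1, which were higher with lard in both bacterial states, and of Fads2 and Elovl5, which passed no test; capitals mark motifs found in them. They lie at chr19:10041298-10041547 (plus strand) for Fads3, chr4:118427843-118428092 (plus strand) for Elovl1, chr19:10101504-10101753 (minus strand) for Fads2 and chr9:77917115-77917364 (plus strand) for Elovl5. The Fads3 and Elovl1 windows lie inside the annotated span of their gene, before an inner start.
Fads3: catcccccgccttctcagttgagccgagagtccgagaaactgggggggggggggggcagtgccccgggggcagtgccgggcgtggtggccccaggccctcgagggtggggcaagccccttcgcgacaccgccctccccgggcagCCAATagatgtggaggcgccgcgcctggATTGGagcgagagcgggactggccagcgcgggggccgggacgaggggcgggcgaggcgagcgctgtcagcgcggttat
Elovl1: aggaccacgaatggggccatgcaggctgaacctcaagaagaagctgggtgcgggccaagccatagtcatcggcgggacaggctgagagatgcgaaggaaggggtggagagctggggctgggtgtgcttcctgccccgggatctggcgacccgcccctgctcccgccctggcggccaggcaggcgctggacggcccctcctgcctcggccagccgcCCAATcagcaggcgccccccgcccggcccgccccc
Fads2: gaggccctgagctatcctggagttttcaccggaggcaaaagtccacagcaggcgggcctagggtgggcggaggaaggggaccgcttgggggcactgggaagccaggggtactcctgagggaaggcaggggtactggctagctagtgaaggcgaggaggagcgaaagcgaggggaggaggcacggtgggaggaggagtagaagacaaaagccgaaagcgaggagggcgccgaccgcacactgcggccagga
Elovl5: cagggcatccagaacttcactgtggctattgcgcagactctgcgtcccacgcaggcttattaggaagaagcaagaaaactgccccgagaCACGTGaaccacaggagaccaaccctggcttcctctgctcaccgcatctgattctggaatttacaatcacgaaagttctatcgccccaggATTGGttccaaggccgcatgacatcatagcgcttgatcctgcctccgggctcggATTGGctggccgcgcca

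The windows were searched on both strands for a sterol regulatory element (TCACNCCAC), the NF-Y box (CCAAT), the E-box (CACGTG), and DR1 and DR4, direct repeats of the nuclear receptor half-site AGGTCA. DR1 is known as a site of PPAR with its partner RXR, and DR4 as a site of LXR with RXR. The Fads3 window held 2 NF-Y boxes, starting 106 and 78 bases before the start, and the Elovl1 window held 1, at 35 bases before the start. The Elovl5 window held 2 NF-Y boxes, at 71 and 17 bases before the start, and 1 E-box, at 161 bases before it. The Fads2 window held none of the 5 motifs, nor did those of Elovl7 and of the other Elovl1 start. NF-Y boxes occurred in 33.8% of the 32851 promoters of the same length, E-boxes in 6.02%, the sterol regulatory element in 1.05%, DR1 in 0.0335% and DR4 in 0.0152%. The NF-Y box was thus present in the windows of Fads3 and Elovl1, which passed a diet test, and of Elovl5, which passed none, and the E-box only in that of Elovl5 among the windows searched. A match is a description of these letters and was not tested as a site.

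The diet comparison separated the family members. In germ-free mice, Scd2, Fads1, Fads3 and Elovl1 were higher with lard than with fish oil, and in conventional mice Scd2, Fads3 and Elovl1 were. Scd1, Fads2, Elovl5 and Elovl7 passed no test in any comparison. Scd2 and Fads1, 2 of the 8 genes, were lower in germ-free than in conventional mice fed fish oil. In that comparison 12.4% of all genes were called either way. With lard 0 of the 8 passed the test between germ-free and conventional mice, against 16.3% of all genes. Fads1 was the member whose diet difference itself differed between germ-free and conventional mice. Hepatocyte markers were high in the germ-free mice on fish oil and so moved with both comparisons that use this group; with their mean as a covariate, Fads3 and Elovl1 in germ-free mice, and Scd2 among fish oil-fed mice, no longer passed, while Fads1 did (values with the markers).

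Calls are adjusted p-values under 0.05 from limma, with Benjamini-Hochberg adjustment over all genes. For lard over fish oil in germ-free mice, 4 members were called higher and 0 lower, where 47.5% of all genes were called either way, 20.4% higher and 27.1% lower. In conventional mice 3 members were called higher and 0 lower, against 31% of all genes either way, 15.4% higher and 15.6% lower. For germ-free over conventional, 0 members were called with lard, where 16.3% of all genes were called, 7.48% higher and 8.77% lower. With fish oil 2 were called lower, where 12.4% of all genes were called, 5.21% higher and 7.15% lower. In the interaction, lard over fish oil in germ-free mice minus the same in conventional mice, 1 member was called higher, against 7.2% of all genes either way, 4.38% higher and 2.81% lower. The median change of the members was 0.37 for lard over fish oil in germ-free mice and 0.09 in conventional mice, against medians of -0.08 and -0.04 over all genes. Large parts of the measured genes thus changed with diet, and the members' count does not set them apart. At an unadjusted limma p under 0.05, 2 members, Fads3 and Elovl5, would have passed between germ-free and conventional mice fed lard.

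**Figure D1:**
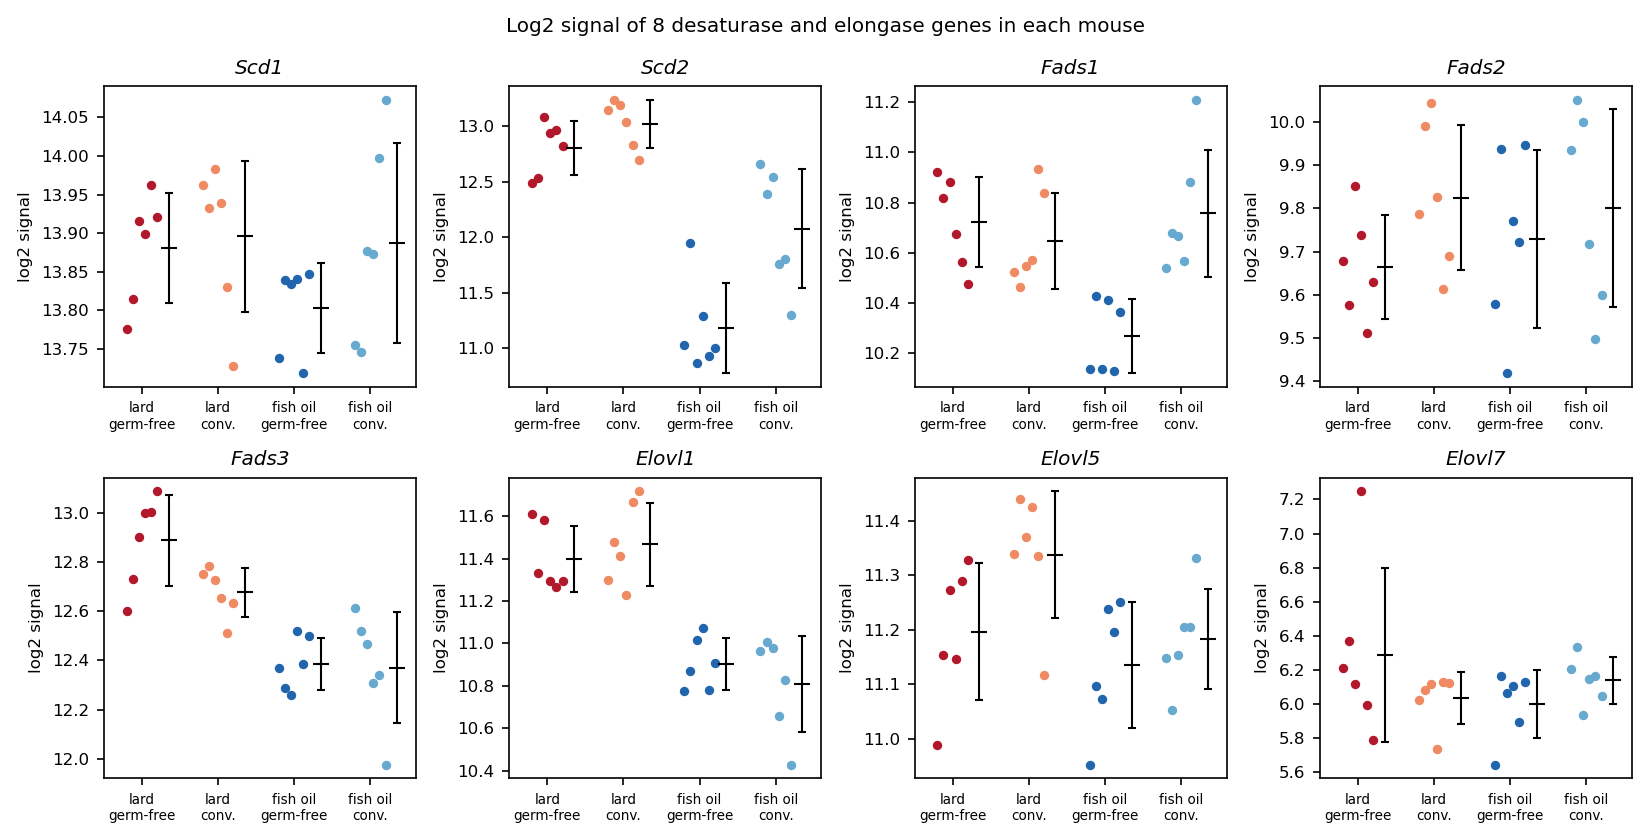
Log2 signal (y axis, each panel with its own range) of the 8 genes in each of 24 mice, in the 4 groups on the x axis. Points are mice and the bar beside them is the mean ± SD (n = 6). Scd2 in the germ-free mice on fish oil lies at 10.87 to 11.95, under the germ-free mice on lard at 12.49 to 13.08, while Scd1 spans 0.35 over all 24 mice.

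Scd2 had the widest range of group means among the 8 genes, 1.84 on the log2 scale. Its log2 signal was 12.49, 12.88 and 13.08 (lowest, median, highest) in germ-free mice on lard, 12.70, 13.10 and 13.24 in conventional mice on lard, 10.87, 11.02 and 11.95 in germ-free mice on fish oil, and 11.30, 12.10 and 12.66 in conventional mice on fish oil. Lard-fed and fish oil-fed mice did not overlap in either bacterial state. With lard Scd2 was 3.08-fold higher than with fish oil in germ-free mice (log2 change 1.62, SE 0.20, limma adjusted p 1.1e-06) and 1.93-fold higher in conventional mice (0.95, SE 0.20, adjusted p 0.000616). Among fish oil-fed mice, Scd2 was lower in the germ-free animals, the log2 change being -0.90 (SE 0.20, limma adjusted p 0.00455). Here the groups overlapped, because mouse 2 of the germ-free group stood at 11.95. The other 5 mice of that group lay under the lowest conventional mouse, mouse 6 at 11.30. With lard the difference between germ-free and conventional mice was -0.22, with a 95% interval from -0.63 to 0.19. The interaction was 0.68 (SE 0.28) and did not pass the test (limma adjusted p 0.147). The comparisons of germ-free mice between diets and of fish oil-fed mice between bacterial states share the germ-free mice on fish oil, so their results for Scd2 are not independent. In bulk tissue, fewer cells of a type and less RNA per cell cannot be told apart, which holds for all changes given here.

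Scd1, the main adipose stearoyl-CoA desaturase, did not follow Scd2. Its group means were 13.88 ± 0.07 and 13.90 ± 0.10 in germ-free and conventional mice on lard, and 13.80 ± 0.06 and 13.89 ± 0.13 in germ-free and conventional mice on fish oil (SD, n = 6 each). All 4 groups overlapped. Its change for lard over fish oil was 0.08 in germ-free mice (95% interval -0.04 to 0.20) and 0.01 in conventional mice (-0.11 to 0.13). Only 0.0201% of genes had a higher mean signal, so Scd1 lay near the top of the array's range, where differences in signal can be compressed; whether they were was not tested. Scd1 and Scd2 encode closely related enzymes, and cross-hybridisation between their probes was not tested.

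Among the Fads genes, which neighbour each other, the 3 members behaved differently. Fads1, the desaturase that makes arachidonic and eicosapentaenoic acid, had log2 signals of 10.48, 10.75 and 10.92 (lowest, median, highest) in germ-free mice on lard, 10.46, 10.56 and 10.93 in conventional mice on lard, 10.13, 10.25 and 10.43 in germ-free mice on fish oil, and 10.54, 10.67 and 11.21 in conventional mice on fish oil. The germ-free mice on fish oil lay below the other 3 groups, and no mouse of that group overlapped with any mouse of the others. With lard Fads1 was 1.37-fold higher than with fish oil in germ-free mice (log2 change 0.45, SE 0.11, limma adjusted p 0.00149). In conventional mice the same change was -0.11 (SE 0.11, limma adjusted p 0.478), with a 95% interval from -0.33 to 0.11. The interaction of 0.57 (SE 0.15) passed the test, with a limma adjusted p of 0.0263. Among fish oil-fed mice, Fads1 was lower in the germ-free group, the log2 change being -0.49 (SE 0.11, limma adjusted p 0.00455), and between the lard-fed groups the change was 0.08 (95% interval -0.15 to 0.30). Mice 5 and 6 of the conventional group on lard were the highest of that group at 10.93 and 10.84, and without them the interaction was 0.69. Without mouse 3 of that group it was 0.55 with a limma adjusted p of 0.0508, and without mice 2, 4 and 5 of the germ-free group on lard, which had the highest intestinal marker means, it was 0.60 with an adjusted p of 0.106.

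Fads3 followed diet in both bacterial states. Its log2 signal was 12.60, 12.95 and 13.09 (lowest, median, highest) in germ-free mice on lard, 12.51, 12.69 and 12.79 in conventional mice on lard, 12.26, 12.38 and 12.52 in germ-free mice on fish oil, and 11.98, 12.40 and 12.61 in conventional mice on fish oil. Within the germ-free mice the diet groups did not overlap, and within the conventional mice they did. With lard Fads3 was 1.42-fold higher than with fish oil in germ-free mice (log2 change 0.50, SE 0.09, limma adjusted p 0.000109) and 1.24-fold higher in conventional mice (0.31, SE 0.09, adjusted p 0.0118). Between germ-free and conventional mice fed lard the change was 0.21 (95% interval 0.02 to 0.40, limma adjusted p 0.125), and among fish oil-fed mice it was 0.02 (-0.17 to 0.20).

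Fads2 passed no test. Its means were 9.66 ± 0.12 and 9.82 ± 0.17 in germ-free and conventional mice on lard, and 9.73 ± 0.21 and 9.80 ± 0.23 in germ-free and conventional mice on fish oil (SD, n = 6 each), and all 4 groups overlapped. The change for lard over fish oil was -0.06 in germ-free mice (95% interval -0.28 to 0.15) and 0.02 in conventional mice (-0.19 to 0.24).

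Of the elongases, Elovl1 was the member that followed diet. Its log2 signal was 11.27, 11.31 and 11.61 (lowest, median, highest) in germ-free mice on lard, 11.23, 11.45 and 11.72 in conventional mice on lard, 10.78, 10.89 and 11.07 in germ-free mice on fish oil, and 10.43, 10.89 and 11.00 in conventional mice on fish oil. The 12 lard-fed mice lay above the 12 fish oil-fed mice without overlap. With lard Elovl1 was 1.41-fold higher in germ-free mice (log2 change 0.49, SE 0.10, limma adjusted p 0.000323) and 1.58-fold higher in conventional mice (0.66, SE 0.10, adjusted p 1.9e-05). Bacterial status gave -0.07 with lard (95% interval -0.28 to 0.14) and 0.09 with fish oil (-0.11 to 0.30), neither past the test.

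Elovl5, which elongates polyunsaturated fatty acids, had means of 11.20 ± 0.13 and 11.34 ± 0.12 in germ-free and conventional mice on lard, and 11.14 ± 0.12 and 11.18 ± 0.09 in germ-free and conventional mice on fish oil (SD, n = 6 each). Its largest change was 0.15 for lard over fish oil in conventional mice (95% interval 0.01 to 0.30, limma adjusted p 0.0905). In the conventional group on lard 5 mice lay at 11.34 to 11.44 and mouse 6 at 11.12; without mouse 6 the change was 0.20 and passed the test (limma adjusted p 0.0277). Elovl7 gave low signals, where changes can be understated, which was not tested. Its means were 6.29 ± 0.51 and 6.04 ± 0.15 in germ-free and conventional mice on lard, and 6.00 ± 0.20 and 6.14 ± 0.14 in germ-free and conventional mice on fish oil. Mouse 4 of the germ-free group on lard, the mouse with the high intestinal marker mean, had 7.25, and the other 5 of its group had 5.79 to 6.37. With it the change for lard over fish oil in germ-free mice was 0.29 (95% interval -0.04 to 0.61), and without it 0.09.

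Members with no overlap between the groups numbered 4 for lard over fish oil in germ-free mice (Scd2, Fads1, Fads3 and Elovl1), against 24.5% of all genes, and 2 in conventional mice (Scd2 and Elovl1), against 14.6%. Between germ-free and conventional mice there were 0 with lard, against 4.15%, and 1 with fish oil (Fads1), against 7.03%.

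**Figure D2:**
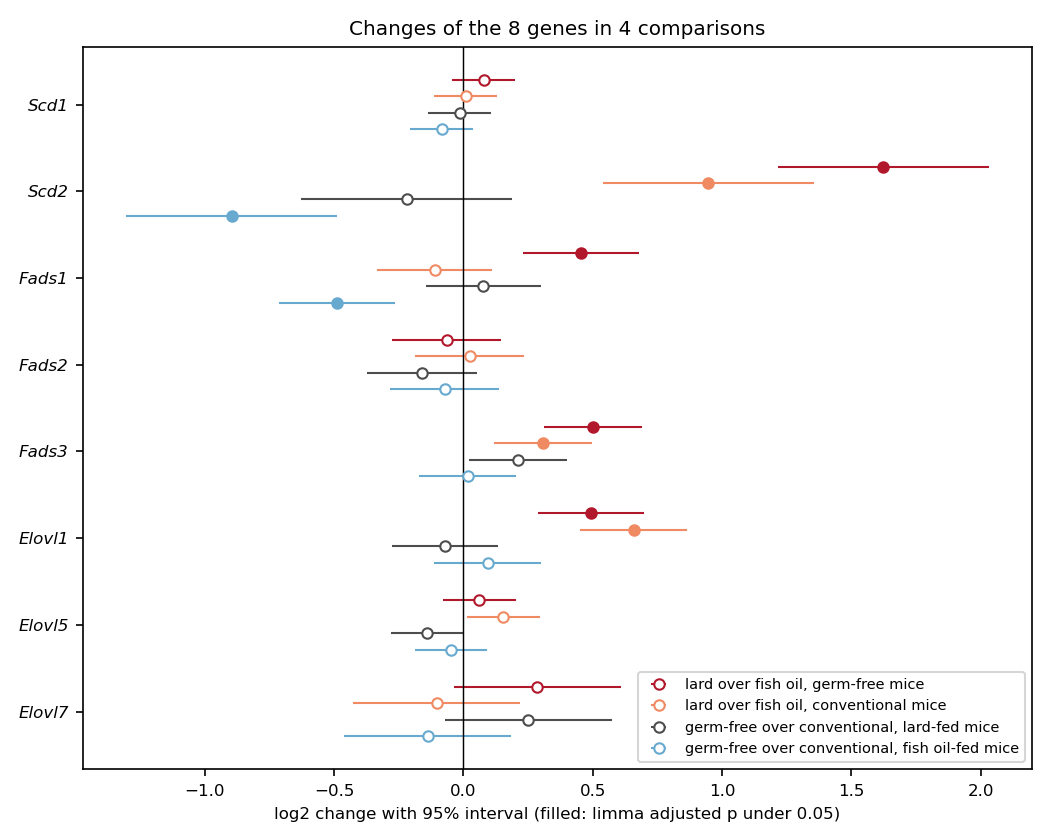
Log2 changes (x axis) of the 8 genes (y axis) in 4 comparisons, with 95% intervals from limma; filled points have an adjusted p under 0.05. Scd2 has the changes farthest from 0, 1.62 and 0.95 for lard over fish oil and -0.90 for germ-free over conventional with fish oil, and 9 of the 32 points are filled.

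Whether relatives changed by different amounts in the same mice was tested on the difference of their log2 signals in each mouse, with an exact two-sided permutation test over all regroupings of 6 against 6 mice. The 7 pairs within the 3 enzyme families, in 4 comparisons, gave 28 tests, of which 10 had an adjusted p under 0.05 over the 28; the smallest p this design can give is 0.00216, adjusted 0.0101. The change of Scd2 with lard exceeded that of Scd1 by 1.55 (SE 0.17, adjusted exact permutation p 0.0101) in germ-free mice and by 0.94 (SE 0.27, adjusted exact permutation p 0.0101) in conventional mice. Fads1 and Fads2 differed by 0.52 (SE 0.08) for lard over fish oil in germ-free mice, with an adjusted exact permutation p of 0.0101. Fads2 changed less than Fads3 in that comparison (-0.57, SE 0.12, adjusted exact permutation p 0.0101), and also in conventional mice (-0.28, SE 0.08, adjusted exact permutation p 0.0364). Fads2 and Fads3 also separated in germ-free over conventional mice fed lard, where the difference of their changes was -0.37 (SE 0.10, adjusted exact permutation p 0.0227), although neither gene passed its own test there. Fads1 was lowered relative to Fads3 in germ-free over conventional mice fed fish oil (-0.50, SE 0.20, adjusted exact permutation p 0.0173). The change of Elovl1 with lard exceeded that of Elovl5 by 0.43 (SE 0.11) in germ-free and 0.50 (SE 0.17) in conventional mice, with adjusted exact permutation p-values of 0.0101 and 0.0364. With the hepatocyte marker mean as a covariate, the germ-free changes of Elovl1 and Elovl5 were 0.07 and 0.13, so the first no longer exceeded the second. In conventional mice they were 0.70 and 0.15. The tests between relatives were not repeated with this covariate. Elovl1 and Elovl7 differed by 0.76 (SE 0.11, adjusted exact permutation p 0.0101) for lard over fish oil in conventional mice. Signals of Scd1 near the top of the array's range and of Elovl7 near its floor can understate their own changes, so the sizes of the differences that involve either gene are uncertain. For germ-free over conventional mice fed fish oil, the change of Scd2 minus that of Scd1 was -0.81 (SE 0.31), which missed the threshold at an adjusted exact permutation p of 0.0808. The tests between diets share mice with those between bacterial states. Without mice 2, 4 and 5 of the germ-free group on lard 3 of the 28 tests passed. In the tests that use this group, 3 against 6 mice cannot give an exact permutation p under 0.0238. The change of Scd2 minus that of Scd1 with lard in germ-free mice was still 1.55 there. Without mice 5 and 6 of the conventional group on lard 12 passed, while the differences of Fads2 from Fads3 and of Elovl1 from Elovl5 in conventional mice had an adjusted exact permutation p of 0.1.

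**Figure D3:**
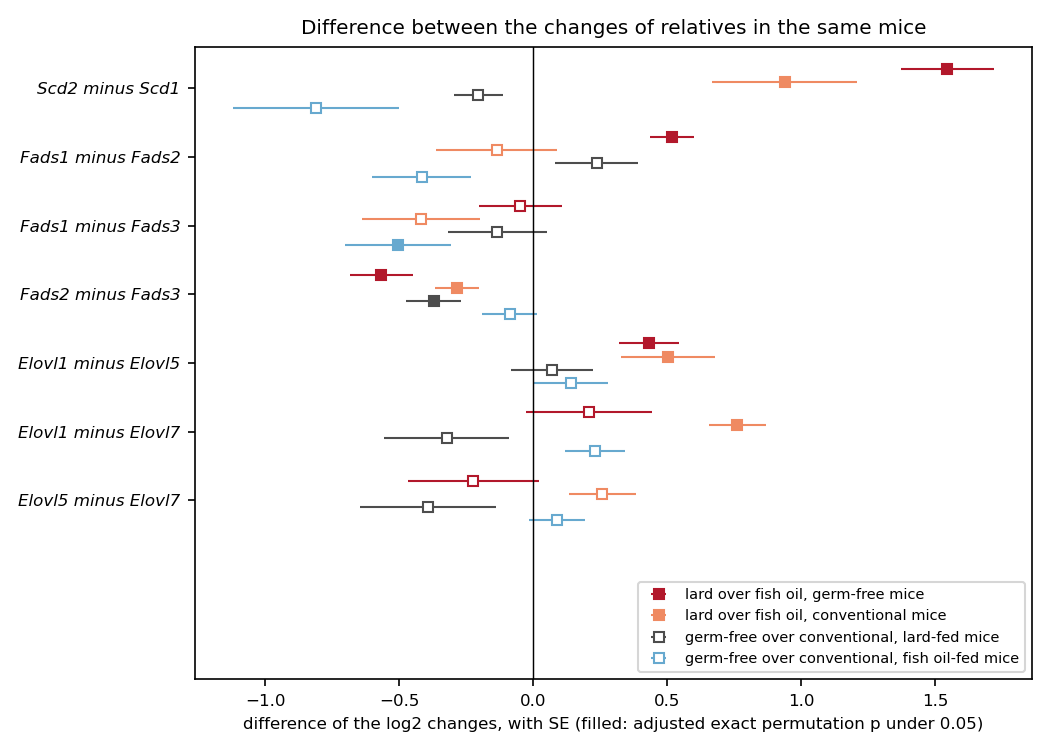
Difference between the log2 changes of 2 relatives measured in the same mice (x axis, bars are SE, 6 mice per group) for 7 pairs (y axis) in 4 comparisons. Filled squares passed the exact permutation test after adjustment over 28 tests; Scd2 minus Scd1 with lard over fish oil lies farthest from 0, at 1.55 in germ-free and 0.94 in conventional mice, with Scd1 near the top of the array's range.

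Of the other desaturase and elongase genes, 9 were measured. For lard over fish oil, 2 were called higher and 1 lower in germ-free mice, and 2 higher and 1 lower in conventional mice. Elovl6, which elongates palmitate to stearate, had log2 signals of 9.96, 10.07 and 10.29 (lowest, median, highest) in germ-free mice on lard, 9.66, 9.95 and 10.01 in conventional mice on lard, 9.10, 9.95 and 10.29 in germ-free mice on fish oil, and 10.47, 10.75 and 11.45 in conventional mice on fish oil. The conventional mice on fish oil thus stood above the other 3 groups without overlap. Elovl6 was lower with lard than with fish oil in conventional mice (log2 change -0.96, SE 0.17), and lower in germ-free than conventional mice fed fish oil (-1.02, SE 0.17). Its interaction was 1.22 (SE 0.24, limma adjusted p 0.00443). Degs1, the dihydroceramide desaturase, was higher with lard in germ-free (0.24) and conventional mice (0.35). Elovl2, an elongase of long polyunsaturated acids, was lower in germ-free mice on lard than on fish oil (-0.48) and higher in germ-free than conventional mice fed fish oil (0.45). Its signals were low, with group means of 5.26 and 5.32 in germ-free and conventional mice on lard, and 5.74 and 5.29 in germ-free and conventional mice on fish oil. In the germ-free group on fish oil its highest value was in mouse 1 (6.47) and its lowest in mouse 3 (5.31), which also had that group's highest and lowest hepatocyte marker means (9.37 and 8.09); the part of these markers in the change of Elovl2 was not tested. Elovl3, an elongase of very long saturated chains, was higher with lard in conventional mice (0.71, limma adjusted p 0.0497), Scd3 was higher in germ-free mice on lard than on fish oil (0.21), and Elovl4 was lower in germ-free than conventional mice fed fish oil (-0.48). Scd4, Fads6 and Degs2 passed no test in the 5 comparisons.

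Listed as partners of these enzymes were the other enzymes of the elongation cycle and the genes of cytochrome b5 proteins and their reductases. Which of the cytochrome b5 genes serve the desaturases in this tissue was not tested. Of the 12 partner genes, 6 were higher and 2 lower in germ-free mice on lard than on fish oil, and 7 higher and 3 lower in conventional mice. The median changes were 0.15 and 0.20, against -0.08 and -0.04 over all genes. With lard in germ-free mice, Cyb5b, an electron carrier, rose by 0.89 (SE 0.10), and the cytochrome b5 reductases Cyb5r3 and Cyb5r4 rose by 0.62 and 0.50. Hacd4, a dehydratase of the elongation cycle, rose by 0.68 in germ-free and 0.80 in conventional mice. Cyb5r2, Cyb5r3 and Cyb5r4 rose by 0.56, 0.50 and 0.41 with lard in conventional mice. Cyb5a, another electron carrier, had lower means with lard: 12.735 and 12.96 in germ-free and conventional mice, against 13.17 and 13.29 with fish oil. Hacd1 was also lower with lard, at 9.44 and 9.89 against 9.89 and 10.15 in the same order. The means of Hsd17b12 were 11.14 and 11.42 with lard, against 11.30 and 11.72 with fish oil. Between germ-free and conventional mice 0 of the 12 were higher and 2 lower on each diet: Hsd17b12, the ketoacyl-CoA reductase of the cycle, with -0.28 on lard and -0.42 on fish oil, Hacd1 with -0.45 on lard, and Cyb5b with -0.36 on fish oil. Cyb5b also passed the interaction test, with 0.58 (SE 0.14).

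Enzymes that activate polyunsaturated fatty acids or place them in lipids were measured for 8 of 10 listed genes. With lard 3 were higher and 2 lower in germ-free mice, and 3 higher and 1 lower in conventional mice. Lpcat3, which puts polyunsaturated chains into phospholipids, was higher with lard in germ-free (0.63, SE 0.06) and conventional mice (0.36, SE 0.06), and lower in germ-free than conventional mice fed fish oil (-0.27, SE 0.06). Its interaction was 0.27 (SE 0.08, limma adjusted p 0.039). Acsl4, an acyl-CoA synthetase that prefers arachidonic acid, was 0.81 higher in germ-free mice on lard than on fish oil and 0.39 higher in germ-free than conventional mice fed lard. Acsl5, another synthetase, was 0.62 and 0.41 higher with lard in germ-free and conventional mice. Agpat3, an acyltransferase of phospholipid synthesis, was lower with lard in conventional mice (-0.47) and lower in germ-free than conventional mice fed fish oil (-0.29).

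Of the genes that make the saturated precursors, most of those called were lower with lard. Of 8 measured, 2 were higher and 4 lower in germ-free mice on lard than on fish oil, and 0 were higher and 6 lower in conventional mice. Acaca, the acetyl-CoA carboxylase of fatty acid synthesis, changed by -1.07 (SE 0.16) in germ-free and -1.87 (SE 0.16) in conventional mice, and Thrsp, a lipogenic nuclear protein, by -1.67 and -2.02. Acss2, an acetyl-CoA synthetase, was 0.79 higher in germ-free mice on lard than on fish oil. Between germ-free and conventional mice fed fish oil 0 were higher and 6 lower, led by Acss2 (-0.86), Acly (-0.85), Acaca (-0.76) and Me1 (-0.54), while with lard 0 passed the limma test and 1, Me1, had an unadjusted p under 0.05. The interaction was called for Acss2 (0.86), Acaca (0.80) and Me1 (0.78), as it was for Fads1. Scd2 and Fads1 thus shared with this list a lower signal in germ-free than conventional mice fed fish oil, and Scd2 differed from most of it in being higher with lard.

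Among 13 measured regulators of these genes, 3 were higher and 6 lower in germ-free mice on lard than on fish oil, and 1 higher and 6 lower in conventional mice. Srebf1, which encodes SREBP-1, changed by -0.41 (SE 0.11) with lard in conventional mice, and by -0.17 in germ-free mice without passing the test. Insig1, a retention factor of the SREBP system, was higher with lard in germ-free (0.73, SE 0.18) and conventional mice (0.48, SE 0.18), and Mbtps1, a protease that activates SREBPs, was 0.42 higher in germ-free mice on lard than on fish oil. Mlxipl, which encodes ChREBP, changed by -0.60 and -0.50 with lard in germ-free and conventional mice. Ppara, the fatty acid-sensing receptor gene, changed by -0.71 with lard in conventional mice. It was also lower with lard in germ-free mice, with means of 7.88 on lard and 8.24 on fish oil. Peroxisomal enzymes that shorten very long chains were measured for 8 of 10 listed genes, of which 1 was higher and 2 lower in germ-free mice on lard than on fish oil and 0 higher and 6 lower in conventional mice. Ehhadh (-0.97), Scp2 (-0.69) and the transporter gene Abcd2 (-0.57) changed most in conventional mice, and Scp2 also changed in germ-free mice (-0.65).

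Likeness of pattern was measured as the root mean square difference of mean-centred log2 signals over the 24 arrays, for the members whose group means spanned at least 0.5. For Scd2, whose own root mean square deviation was 0.80, the closest genes were Mtarc1 (0.31), Plppr4 (0.35) and Paqr9 (0.36). For Fads3, with a deviation of 0.26, they were Mlec (0.11), Slc39a13 (0.11) and Lpgat1 (0.12). For Elovl1, with a deviation of 0.33, they were Nfkbib (0.10), Tax1bp3 (0.11) and Csk (0.11). These genes were found by their likeness, and their group means are a description with no test: Paqr9 had 11.36 and 11.23 in germ-free and conventional mice on lard, and 10.20 and 10.83 in germ-free and conventional mice on fish oil.

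Markers of other cell types moved with diet and bacterial status in the same arrays. Of 13 macrophage markers, 12 were higher and 1 lower with lard in both bacterial states. Their mean was 10.97 to 11.44 in germ-free mice on lard and 10.62 to 11.42 in conventional mice on lard, against 10.004 to 10.66 in fish oil-fed germ-free and 9.97 to 10.47 in conventional mice on fish oil. Of 9 adipocyte markers, 1 was higher and 6 lower in germ-free mice on lard than on fish oil, and 1 higher and 8 lower in conventional mice. The part of these shifts in the higher Scd2, Fads3 and Elovl1 signals with lard was not tested. Mice 5 and 6 of the conventional group on lard, with the highest macrophage marker means of their group, also had its highest Elovl1 values, 11.67 and 11.72. Without them the change of Elovl1 for lard over fish oil in conventional mice was 0.55 (limma adjusted p 0.000425), that of Scd2 was 1.08 and that of Fads3 was 0.36.

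The hepatocyte marker mean averaged 6.94 ± 0.41 and 7.28 ± 0.48 in germ-free and conventional mice on lard, against 8.76 ± 0.51 and 7.09 ± 0.51 in germ-free and conventional mice on fish oil (log2 signal, SD, n = 6 each). Of 23 markers, 0 were higher and 22 lower in germ-free mice on lard than on fish oil, and 20 were higher and 0 lower in germ-free than conventional mice fed fish oil. Alb averaged 12.31 in germ-free mice on fish oil, against 9.25 in conventional mice on fish oil. With the hepatocyte marker mean as a covariate, the change for lard over fish oil in germ-free mice was 1.30 for Scd2 (limma adjusted p 0.0124) and 0.66 for Fads1 (adjusted p 0.0164). The same changes of Fads3 (0.35, limma adjusted p 0.108) and Elovl1 (0.07, adjusted p 0.738) no longer passed. Among fish oil-fed mice, Fads1 was lower in the germ-free group with the covariate (-0.68, limma adjusted p 0.0229) and Scd2 no longer passed (-0.60, adjusted p 0.248). In conventional mice Scd2, Fads3 and Elovl1 passed for lard over fish oil with the covariate, with changes of 0.98, 0.32 and 0.70. The covariate was highest on average in the germ-free mice on fish oil, so its part and that of the group cannot be fully told apart.

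**Figure D4:**
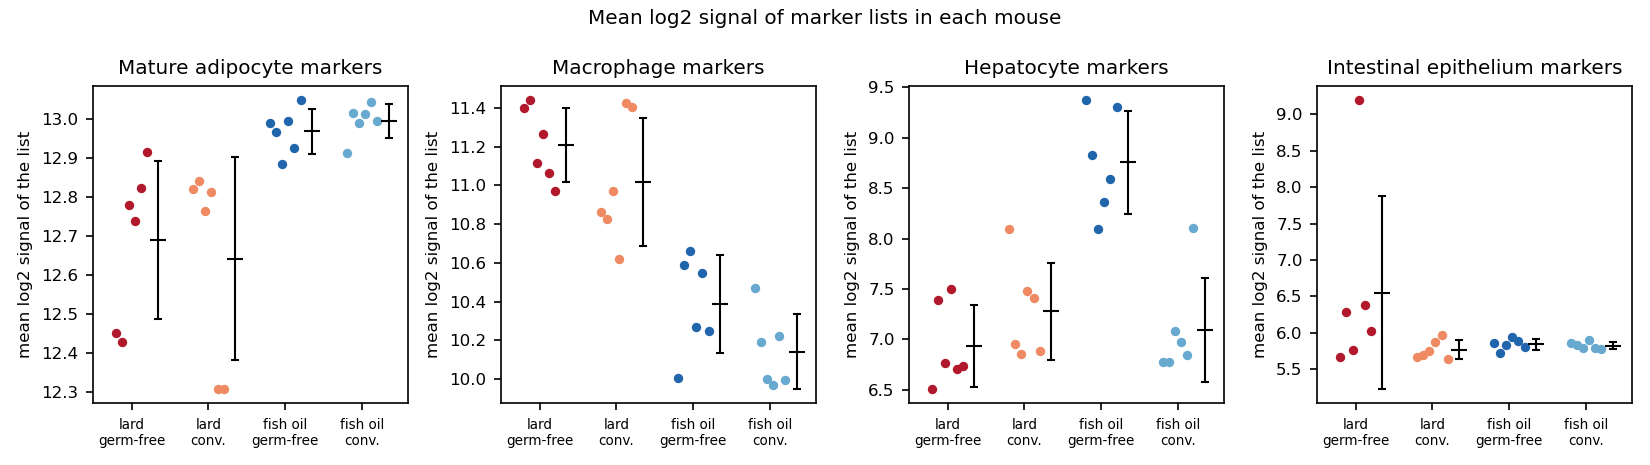
Mean log2 signal (y axis) of 4 marker lists in each mouse, by group on the x axis; points are mice and the bar beside them is the mean ± SD (n = 6). The germ-free mice on fish oil have hepatocyte marker means of 8.09 to 9.37, mouse 4 of the germ-free group on lard has an intestinal marker mean of 9.19, and the lard-fed groups have the higher macrophage means.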

How the data were processed

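Total RNA from each of 24 mice was amplified, biotinylated and hybridised to a single-colour Affymetrix array (250 ng per mouse), per the labels' protocols. The deposited values are log2 signals per probe set, made by the authors by RMA, per the submitters' processing notes. That method subtracts background, equalises distributions between arrays and summarises probes, and low signals are compressed. The version, the annotation build and any scan batches are not stated in the labels. The platform table gave a single symbol for 21789 of 35556 probe sets, several for 1621 and none for 12146; 21698 of the 21789 were found by Entrez ID in a RefSeq table (GRCm38.p6), used for names, gene order and chromosomes. Only those with a single symbol were kept, and the probe set with the highest mean stood for a gene, which left 19938 genes.

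Group means of all 24 arrays were fitted in 1 model with lmFit and eBayes (limma 3.58.1, R 4.3.3), with 5 two-sided contrasts and Benjamini-Hochberg adjustment over the 19938 genes. Exact permutation tests, likeness and motif counts used numpy 2.4.6, pandas 2.3.3 and scipy 1.17.1 under python 3.11.15, and figures matplotlib 3.10.9. The fit was tested on simulated data for lard over fish oil in germ-free mice (19938 genes). It recovered 96% of 100 genes changed by 1 log2 and 83% of 100 changed by 0.5, with 2.19% false among its calls. In the simulation genes varied independently and only these were changed, while in the data 47.5% of genes were called. These rates may therefore not hold for the data. The number of arrays limits the precision.

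Named genes are the 8 members, all 9 other family genes, up to 4 called genes with the largest change per pathway list and comparison, and the 3 genes most like each member that varied by at least 0.5. The partner gene Cyb5a is named in addition. Members, lists, rules and alternatives were chosen with earlier results of these data known. Nothing in the labels says which mice shared a cage or litter. Promoter sequences are RefSeq's.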

Additional observations from a re-analysis of the deposited data

Results flagged for a closer look

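Fads1 differed in its response to diet between bacterial states. The change for lard over fish oil in germ-free mice minus the same change in conventional mice was 0.57 on the log2 scale (SE 0.15), and the interaction test in limma gave an adjusted p of 0.0263. The change was 0.45 in germ-free mice, where the groups did not overlap, and -0.11 in conventional mice, where they did. The interaction did not pass without mouse 3 of the conventional group on lard (limma adjusted p 0.0508). Nor did it without mice 2, 4 and 5 of the germ-free group on lard (limma adjusted p 0.106).

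In the conventional group on lard, mouse 6 had an Elovl5 signal of 11.12, against 11.34 to 11.44 in the other 5 mice, a gap that passed Dixon's test at its 95% critical value of 0.625 for 6 samples. The same mouse had, with mouse 5, the lowest adipocyte marker mean of the group. Mouse 4 of that group had an Elovl7 signal of 5.74, against 6.02 to 6.13 in the others, and passed the same test. These were 2 of 32 groups tested, and chance alone flags about 1 in 20. Whether the tissue sampled differed in these mice was not tested.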

How the results depend on the processing

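Of 960 results of the members with 1 mouse left out, 954 kept their side of the threshold, 1 lost the call and 5 gained it. Leaving out a mouse of a group not compared cannot alter the log2 change, so part of the 954 could not move in size. Of 427 under the other alternatives, 417 kept their side, 4 lost the call and 6 gained it. In both sets 0 called results turned their direction. The sign changed in 13 of the 960 and 10 of the 427, all of them uncalled before and after. For lard over fish oil in germ-free mice 2 members were called with the hepatocyte marker mean as a covariate and 1 (Scd2) with a fold of at least 1.5. Between germ-free and conventional mice fed lard, repeated quantile normalization called 1 (Fads3, 0.28, limma adjusted p 0.0375), leaving out mice 5 and 6 of the conventional group on lard called 1 (Elovl5, -0.20, limma adjusted p 0.0464), and leaving out 1 mouse gave 0 to 1. Among fish oil-fed mice 1 was called at 1.5-fold. In the interaction 2 were called with the covariate (Elovl1 at -0.63, limma adjusted p 0.0247, beside Fads1), 0 without mice 2, 4 and 5 of the germ-free group on lard, 0 at 1.5-fold, and 0 to 2 with 1 mouse left out: 0 without mouse 3 of the conventional group on lard, and 2 without mouse 2 of the germ-free group on fish oil, where Scd2 reached 0.83 (limma adjusted p 0.0491). With the covariate Elovl1 was also higher in germ-free than conventional mice fed fish oil (0.48, limma adjusted p 0.0333). With any single mouse left out, the interaction of Fads1 lay between 0.48 and 0.62, with limma adjusted p-values from 0.0144 to 0.0508. Differences between relatives passed in 3 of 28 tests without mice 2, 4 and 5 of the germ-free group on lard, where 3 against 6 mice cannot give an exact permutation p under 0.0238. Elovl7 passed for lard over fish oil in germ-free mice without mouse 6 of the germ-free group on lard (0.39, limma adjusted p 0.0405), Fads3 between germ-free and conventional mice fed lard without mouse 1 of the germ-free group on lard (0.27, adjusted p 0.0437), and Elovl5 for lard over fish oil in conventional mice with array weights (0.21, adjusted p 0.0116). The cause of each of these shifts was not tested.

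Over all genes, 9468 were called for lard over fish oil in germ-free mice, against 4945 with the covariate, 5278 without mice 2, 4 and 5 of the germ-free group on lard and 1985 at 1.5-fold; in conventional mice 6178, against 1627 at 1.5-fold. Germ-free over conventional gave 3240 with lard, against 5033 with array weights, 5079 without mice 5 and 6 of the conventional group on lard, 177 without mice 2, 4 and 5 of the germ-free group on lard and 294 at 1.5-fold; with fish oil 2464, against 361 at 1.5-fold. The interaction gave 1435, against 2526 with array weights, 2710 without mice 5 and 6 of the conventional group on lard, 225 without mice 2, 4 and 5 of the germ-free group on lard, 385 at 1.5-fold, and 861, 909 and 925 without mouse 3 of the conventional group on lard, mouse 3 of the conventional group on fish oil or mouse 4 of the germ-free group on lard. Median centring moved the share of called genes that were higher to 59.2%, against 43.0%, for lard over fish oil in germ-free mice, to 20.3%, against 42.2%, for germ-free over conventional with fish oil, and to 84.4%, against 60.9%, in the interaction; it changed no call of a member.

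Mouse numbers are shared between groups, and with the number as a replicate block the members called stayed at 4, 3, 0, 2 and 1 in the 5 comparisons, with a limma adjusted p of 0.0453 for the Fads1 interaction. Same-numbered mice deviated together at a correlation over 0.1 in 1 to 2 of 6 pairs per comparison, so the numbers were not taken to pair mice.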

Other observations

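Among the other marker lists, 5 of 7 mesothelial markers were lower in germ-free mice on lard than on fish oil and 7 of 7 in conventional mice, and 0 were higher. Of 5 measured markers of lipid-associated macrophages, 3 were higher in germ-free mice on lard than on fish oil and 5 in conventional mice, and 4 were higher in germ-free than conventional mice fed fish oil. Their mean was 10.59 to 11.20 in germ-free mice on fish oil and 8.65 to 10.48 in conventional mice on fish oil. Of 5 brown-like adipocyte markers, 3 were lower in germ-free mice on lard than on fish oil, 3 were lower with lard in conventional mice, and 3 were lower in germ-free than conventional mice fed fish oil. Ucp1, among these 5, had low signals in all groups. Its means were 6.12 and 5.99 in germ-free and conventional mice on lard, and 5.98 and 6.10 on fish oil. The part of the marker shifts in the changes of the desaturases and elongases was not tested.

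Mouse 6 of the conventional group on fish oil was at an end of its group for 6 of the 8 members: lowest for Scd2 (11.30), Fads3 (11.98) and Elovl1 (10.43), and highest for Scd1 (14.07), Fads1 (11.21) and Elovl5 (11.33). Without this mouse the change of Scd2 for lard over fish oil in conventional mice was 0.79 (limma adjusted p 0.002), and that of Fads1 for germ-free over conventional mice fed fish oil was -0.40 (limma adjusted p 0.0109). Mouse 1 of the germ-free group on lard was at an end for 6 members too: lowest for Scd1, Scd2, Fads3 and Elovl5, and highest for Fads1 (10.92) and Elovl1 (11.61).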
